A study of Homo sapiens with 7 samples.

Results

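The Kruppel-like factor (KLF) genes KLF2, KLF3, KLF4, KLF5, KLF6, KLF7, KLF9, KLF10, KLF11 and KLF13 were followed by RNA-seq in HEK-293 cells, an established human embryonic kidney cell line. The 10 genes were taken by name from a list, each matched by its Ensembl identifier to 1 row of a table of 19978 genes, and all 10 passed the filter on low counts that left 14863 genes for testing. Of the 8 other KLF genes in the table, 5 passed that filter. The control was DMEM of pH 7.4 with the solvent DMSO (2 samples), acidosis was DMEM brought to pH 6.6 with HCl and carrying the same solvent (3 samples), and the last group was DMEM of pH 7.4 with 10 µM SRPIN340 in DMSO (2 samples). SRPIN340 inhibits SR protein kinases, which phosphorylate splicing factors. Each condition lasted 48 h. Samples are biological repeats of 1 cell line, so the spread between them does not cover other cells or tissues.

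KLF proteins are transcription factors that bind GC-rich and CACCC sequences through zinc fingers at the C-terminal end, as do the related SP proteins. The N-terminal parts differ and recruit either coactivators or corepressors, and KLF genes are usually sorted into classes by these partners. Several KLF genes are early response genes, whose mRNA is short-lived and follows serum, shear stress, cytokines, hormones or cell stress. In the kidney and its blood vessels, KLF proteins are known for roles in differentiation, fibrosis and resistance to injury.

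Promoter sequence is shown for the 5 members with the largest changes in acidosis, KLF2, KLF6, KLF7, KLF9 and KLF4, because the changes were measured at the level of mRNA and these windows lie just upstream of the transcripts. The windows come from RefSeq (GRCh38.p14), and 13 windows of 8 of the 10 members were used. KLF3 had no window, and KLF10 was left out of the search. Each window runs from 250 bases before an annotated start to 50 after it. Only bases that no annotated exon of the gene covers are printed. The KLF2 window is chr19:16324576-16324825 on the plus strand. The others lie on the minus strand, at chr10:3785282-3785459 for KLF6, chr2:207167268-207167496 for KLF7 (1 of several annotated starts), chr9:70414658-70414907 for KLF9 and chr9:107489770-107490019 for KLF4. All are printed 5′ to 3′ along the gene. Of the KLF7 windows, only that with a CArG box is printed, and its bases are 43.2% G and C. Among those not printed, chr2:207166857-207166993 is 79.6% G and C and holds GC boxes. Capitals mark a MEF2 site and a TATATA match (KLF2), an E-box (KLF6), a CArG box (KLF7), a TATATA match (KLF9), and an E-box and 2 matches to the shorter form of the cAMP response element, read from the other strand (KLF4).
KLF2: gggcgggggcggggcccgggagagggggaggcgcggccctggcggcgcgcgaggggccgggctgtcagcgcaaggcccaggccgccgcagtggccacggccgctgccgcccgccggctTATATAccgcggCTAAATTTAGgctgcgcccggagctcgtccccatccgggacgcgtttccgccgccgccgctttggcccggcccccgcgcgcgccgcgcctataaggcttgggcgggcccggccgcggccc
KLF6: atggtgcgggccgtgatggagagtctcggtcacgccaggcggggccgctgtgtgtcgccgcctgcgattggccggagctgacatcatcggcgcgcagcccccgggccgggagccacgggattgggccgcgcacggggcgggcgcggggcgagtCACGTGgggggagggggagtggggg
KLF7: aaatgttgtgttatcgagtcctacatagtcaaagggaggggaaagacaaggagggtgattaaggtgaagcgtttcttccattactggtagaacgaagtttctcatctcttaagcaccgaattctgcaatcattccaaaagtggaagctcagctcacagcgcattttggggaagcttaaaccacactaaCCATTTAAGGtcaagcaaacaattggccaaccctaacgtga
KLF9: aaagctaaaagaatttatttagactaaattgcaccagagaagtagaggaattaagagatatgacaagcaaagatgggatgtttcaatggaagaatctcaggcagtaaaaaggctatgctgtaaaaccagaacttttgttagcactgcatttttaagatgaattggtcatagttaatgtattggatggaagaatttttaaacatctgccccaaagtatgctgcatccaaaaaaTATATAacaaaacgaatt
KLF4: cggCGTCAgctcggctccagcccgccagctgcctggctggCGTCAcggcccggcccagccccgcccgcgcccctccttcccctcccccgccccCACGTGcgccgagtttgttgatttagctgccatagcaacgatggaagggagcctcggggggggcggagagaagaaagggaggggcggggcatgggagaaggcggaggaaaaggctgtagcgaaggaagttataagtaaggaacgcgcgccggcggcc

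These motifs were searched on both strands in all 35116 RefSeq windows of this length. The MEF2 site, the sequence bound by MEF2 factors, was in 0.572% of all windows and in 1 of the members' 13 windows, that of KLF2, 120 bases before the start. The CArG box, bound by serum response factor, was in 1.29% of all windows and in 1 of the 13, a window of KLF7. The full cAMP response element, TGACGTCA, was in 1.85% of all windows and in 1 of the 13, a window of KLF11, and its shorter form TGACG, which overlaps the full element, was in 24.6% of all windows and in 4 of the 13. The E-box CACGTG was in 7.26% of all windows and in 4 of the 13, and the TATA box, searched as TATAAA or TATATA, was in 13.7% of all windows and in 3 of the 13. The GC box GGGCGG, left in lower case above, was in 45% of all windows and in 8 of the 13. KLF9 had no GC box in its window, and its printed sequence was 32.4% G and C against 80% for KLF2. The CACCC box, CCACCC, was in 34.3% of all windows and in 2 of the 13, of KLF7 and KLF13. The AP-1 site TGANTCA was in 7.71% of all windows and in 0 of the 13. No motif was shared by all 5 printed sequences. A match of letters is a description and not a binding site.

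Library totals ran from 13615816 to 24110460 estimated counts, lowest in acidosis 2. The 100 most abundant genes took 15.2% to 15.4% of each library at pH 7.4 and 24.06% to 24.8% of each acidosis library. The scaling factors of the TMM method, which align the typical gene between libraries, were 1.17 to 1.21 at pH 7.4 and 0.78 to 0.80 in acidosis. Scaling by total count only moved the median over all genes of the log2 fold change between acidosis and control from -0.05 to -0.63 and the share of higher genes among calls from 43.0% to 13.5%, so every change in acidosis below is relative to the typical gene, and fewer expressing cells or less RNA per cell cannot be told apart in bulk RNA. Of the markers set for the cell line, 6 of 6 were detected, with a summed level of 1189 to 1275 CPM in control and 3194 to 3221 CPM in acidosis, most of it vimentin. In acidosis 4 of these 6 markers passed higher and 2 lower, PAX2 being at 6.78 CPM in control and 1.82 CPM in acidosis and INA at 28.75 and 17.7 CPM. UMOD, AQP2 and CD3E were at 0 in control and acidosis samples, and the marker lists of differentiated kidney, blood, endothelium, liver and keratinocytes summed to at most 2.32 CPM each. The blood list summed to 0.288 to 0.456 CPM in control and 1.19 to 1.56 CPM in acidosis, and 2 of 2 tested blood markers and 1 of 2 tested endothelial markers were called higher in acidosis. The part of these differences in the results was not tested.

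In acidosis most KLF genes rose, by 1.41-fold (KLF3) to 97.0-fold (KLF2). Of the 10 members, 9 passed the test against control in the higher direction (adjusted p under 0.05), against 32.5% of all genes tested, and 0 passed in the lower direction, against 34.2% of all genes. With a log2 fold change over 1 also required, which is what a call means here, 8 members were called higher (14.4% of all genes) and 0 lower (19.1% of all genes). The tests were edgeR quasi-likelihood tests with Benjamini-Hochberg adjustment over all 14863 genes. DESeq2 also called 8 members, and no member had an unadjusted p under 0.05 in the lower direction. In all 10 members the lowest acidosis sample was above the highest control sample, which held for 37.0% of all genes. The median log2 fold change was 2.12 over the members and -0.05 over all genes. The members were chosen with earlier results of these data known, so their excess over all genes is a description and not a test. With libraries scaled by total count only, 6 members were called, because KLF10 and KLF11 came under the limit of 1, and the direction of KLF3 and KLF5 turned. With that scaling 815 of all 14863 genes were called higher and 5202 lower.

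**Figure D1:**
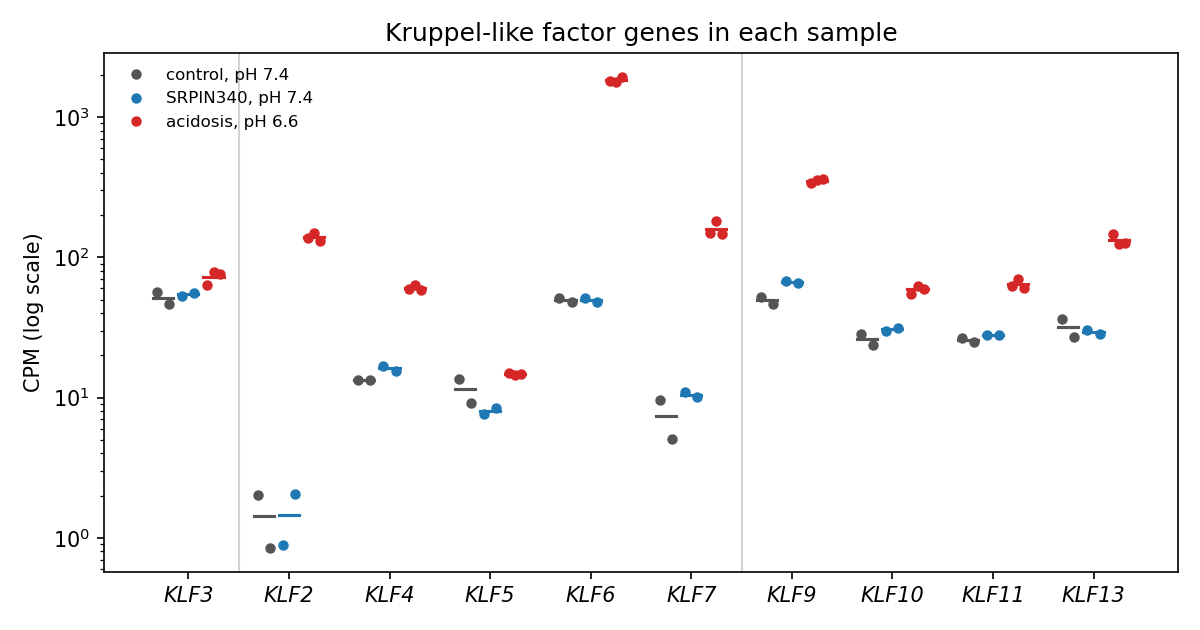
Level of each KLF gene in each sample, as CPM (estimated counts scaled to a common library total, with TMM factors) on a log axis. Points are samples, bars are group means, and grey lines separate the CtBP-binding, activator and SIN3-binding classes; the acidosis points of KLF6 lie between 1787 and 1940 CPM, and all other points lie at 363 CPM or lower.

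The activator class, KLF2, KLF4, KLF5, KLF6 and KLF7, held the largest changes. KLF2 (ENSG00000127528.6, chromosome 19, 16324826 to 16328685) keeps endothelial cells and naive T cells quiescent and is known as a gene induced by shear stress. Its level was 2.02 and 0.843 CPM in the control samples, 0.885 and 2.05 CPM with SRPIN340, and 137, 149 and 130.4 CPM in acidosis. The gene was thus barely expressed at pH 7.4, with 24.3 to 56.1 estimated counts in control, and it was well above that in every acidosis sample. The log2 fold change against control was 6.60 ± 0.31 (SE, adjusted p = 1.1e-07, edgeR), a 97.0-fold difference of fitted levels, and 28 of the 14863 genes tested had a larger one. The size depended on single control libraries, with a log2 fold change of 7.35 without control 1 and 6.08 without control 2.

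KLF6 (ENSG00000067082.15, chromosome 10, 3775996 to 3785281), a broadly expressed early response gene known from tissue injury, had the largest gain in level. The control samples held 51.5 and 48.3 CPM, the SRPIN340 samples 51.0 and 47.8 CPM, and the acidosis samples 1800, 1787 and 1940 CPM. Control and SRPIN340 samples overlapped, and the acidosis samples stood far above both. The log2 fold change against control was 5.21 ± 0.08 (SE, adjusted p = 2.9e-10, edgeR), or 36.9-fold, and 60 genes had a larger one.

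KLF7 (ENSG00000118263.16, chromosome 2, 207074137 to 207173856), known for its part in the growth of axons, was low at pH 7.4. It was at 9.65 and 5.09 CPM in control, 10.95 and 10.1 CPM with SRPIN340, and 149.9, 181 and 147 CPM in acidosis. The control samples differed by more than the SRPIN340 samples did, and neither group came near acidosis. Acidosis differed from control by a log2 fold change of 4.43 ± 0.24 (SE, adjusted p = 2.4e-07, edgeR), or 21.6-fold, exceeded by 97 genes.

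KLF4 (ENSG00000136826.15, chromosome 9, 107484852 to 107490482), a reprogramming factor that also restrains proliferation of epithelial cells, stood at 13.3 and 13.3 CPM in control, 16.9 and 15.5 CPM with SRPIN340, and 59.9, 63.5 and 58.4 CPM in acidosis. Samples within each group lay close together. KLF4 rose on the log2 scale by 2.19 ± 0.11 (SE, adjusted p = 1.5e-07, edgeR), or 4.56-fold.

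KLF5 (ENSG00000102554.14, chromosome 13, 73054976 to 73077541), which promotes proliferation in many epithelia, was the member that did not pass. Its level was 13.65 and 9.20 CPM in control, 7.67 and 8.43 CPM with SRPIN340, and 15.02, 14.4 and 14.7 CPM in acidosis. The acidosis samples were nearly equal and just above control 1, while control 2 was nearer to the SRPIN340 samples. The log2 fold change was 0.37 ± 0.18 (SE, 95% interval -0.05 to 0.78, adjusted p = 0.11, edgeR). It was 0.67 (adjusted p = 0.018) without control 1, and -0.21 with total count scaling.

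The repressor KLF3 (ENSG00000109787.13, chromosome 4, 38664197 to 38701517) acts through the corepressor CtBP and is best known from red blood cell and fat cell differentiation. It was at 56.2 and 46.5 CPM in control, 53.3 and 55.4 CPM with SRPIN340, and 63.4, 78.4 and 76.5 CPM in acidosis. Acidosis 1 was the lowest of its group and was still above control 1. The change was small, with a log2 fold change of 0.50 ± 0.12 (SE, adjusted p = 0.0046, edgeR), which passed the test and stayed under the limit for a call. This result depended on the processing, with adjusted p = 0.060 without control 2 and a log2 fold change of -0.07 (adjusted p = 0.60) with total count scaling.

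The members that bind the corepressor SIN3A, KLF9, KLF10, KLF11 and KLF13, were all called higher. KLF9 (ENSG00000119138.5, chromosome 9, 70384604 to 70414657), a target of glucocorticoid and thyroid hormone receptors, was at 51.9 and 46.65 CPM in control, 68.1 and 65.2 CPM with SRPIN340, and 336, 356 and 363 CPM in acidosis. The 3 groups did not overlap, with SRPIN340 between control and acidosis and much nearer to control. In acidosis KLF9 rose by a log2 fold change of 2.83 ± 0.08 (SE, adjusted p = 8.3e-09, edgeR), or 7.13-fold, exceeded by 261 genes.

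KLF13 (ENSG00000169926.11, chromosome 15, 31326835 to 31435665), a regulator of the chemokine gene CCL5 in T cells, was at 36.5 and 27.2 CPM in control, 30.4 and 28.5 CPM with SRPIN340, and 147, 124 and 126.5 CPM in acidosis. The SRPIN340 samples lay inside the control range, and the acidosis samples lay well above it. The rise of KLF13 was a log2 fold change of 2.06 ± 0.14 (SE, adjusted p = 1.0e-06, edgeR), or 4.18-fold.

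KLF11 (ENSG00000172059.11, chromosome 2, 10042849 to 10054836) and KLF10 (ENSG00000155090.15) are both early response genes of transforming growth factor beta. KLF11 was at 26.7 and 24.8 CPM in control, 28.1 and 27.9 CPM with SRPIN340, and 62.1, 70.05 and 60.4 CPM in acidosis. KLF10 was at 28.35 and 23.55 CPM in control, 29.9 and 31.6 CPM with SRPIN340, and 54.9, 62.3 and 59.7 CPM in acidosis. Both genes thus stood at similar CPM in each group, and both acidosis ranges lay clear of the other samples. The log2 fold change was 1.32 ± 0.11 for KLF11 (SE, adjusted p = 3.0e-06, edgeR) and 1.18 ± 0.12 for KLF10 (SE, adjusted p = 1.2e-05, edgeR). With total count scaling these log2 fold changes were 0.74 and 0.61. Exons of antisense genes overlap those of KLF3, KLF4, KLF7 and KLF11, and whether reads were assigned by strand is not given in the sources used here.

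With SRPIN340 against control, fitted log2 fold changes of the KLF genes lay between -0.51 (KLF5) and 0.51 (KLF7). Of the 10 members, 1 passed in the higher direction, against 0.767% of all genes, and 0 passed in the lower direction, against 1.53% of all genes. By edgeR, 0 members were called in the higher (0.128% of all genes) or the lower direction (0.195% of all genes), DESeq2 also called 0, and at an unadjusted p under 0.05 edgeR had 2 higher and 1 lower. The member that passed was KLF9, with a log2 fold change of 0.44 ± 0.08 (SE, adjusted p = 0.034, edgeR), or 1.35-fold. Its SRPIN340 samples were both above both control samples, which held for 5 of the 10 members and 27.3% of all genes. KLF9 no longer passed when any 1 of the 4 libraries was left out or with the replicate number as a block (adjusted p = 0.11, edgeR). KLF4 had a log2 fold change of 0.29 (95% interval 0.03 to 0.54, adjusted p = 0.23), and KLF5 had one of -0.51 (95% interval -0.96 to -0.05, adjusted p = 0.23), both by edgeR. KLF7, at 0.51 (95% interval -0.04 to 1.065, adjusted p = 0.32, edgeR), was at 1.04 without control 1 and 0.12 without control 2. KLF6, the member of largest gain in acidosis, had a log2 fold change of -0.01 with a 95% interval of -0.18 to 0.15. The interval of KLF2 was far wider, from -0.92 to 1.00, and this gene held at most 56.1 estimated counts in any sample at pH 7.4. The median log2 fold change over the members was 0.10, and over all genes it was 0.00.

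**Figure D2:**
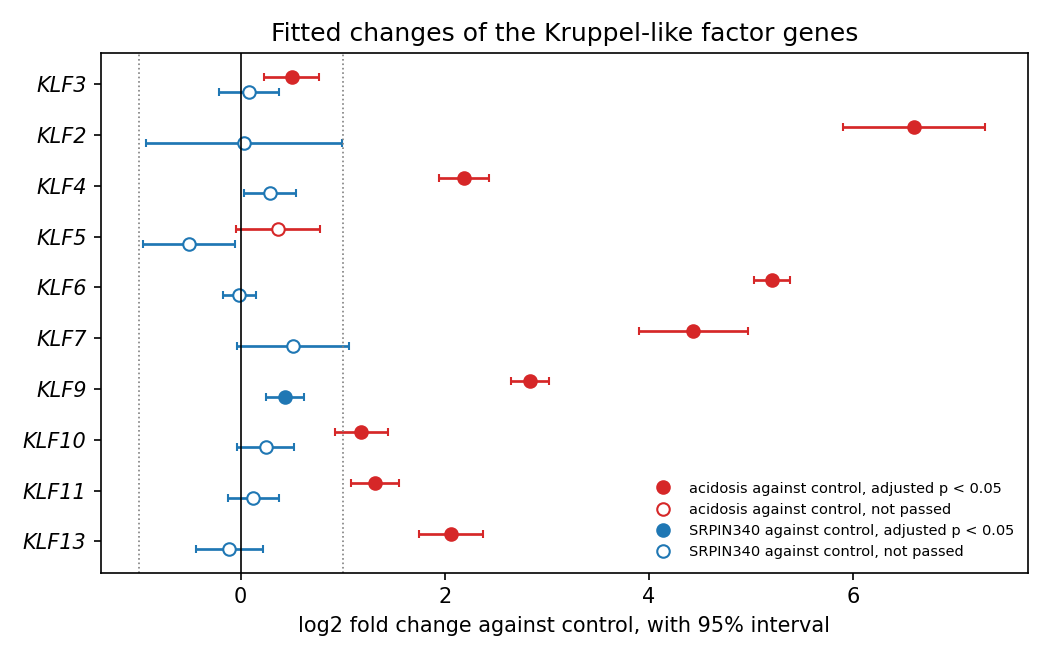
Fitted log2 fold change of each KLF gene against control with its 95% interval, in acidosis (red) and with SRPIN340 (blue). Filled points passed at an adjusted p under 0.05 and dotted lines mark a log2 fold change of 1 in either direction; 8 red points lie beyond 1 and no blue point does, and the red points of KLF3 and KLF5 move below 0 with total count scaling.

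Set directly against SRPIN340, which has the same acidosis samples as the comparison with control, acidosis was higher for 10 of 10 members at an adjusted p under 0.05 (32.8% of all genes), and 7 were called higher (14.9% of all genes). The log2 fold changes were 6.56 for KLF2, 5.22 for KLF6, 3.92 for KLF7, 2.40 for KLF9, 2.17 for KLF13, 1.90 for KLF4 and 1.20 for KLF11. KLF10, at 0.94, was under the limit here and over it against control. KLF5 had a log2 fold change of 0.87 ± 0.19 (SE, adjusted p = 0.0025, edgeR), its SRPIN340 samples being the lowest of the experiment, and 0.26 (adjusted p = 0.24) with total count scaling. KLF3 had one of 0.42 ± 0.12 (SE, adjusted p = 0.012, edgeR), which did not pass without either SRPIN340 sample (adjusted p = 0.081 and 0.052) or with the replicate block (0.052), and which was -0.20 with total count scaling.

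Levels of different KLF genes were compared as CPM per kb of the canonical transcript, a measure that depends on the transcript chosen. The sum over the 10 genes was 58.8 ± 6.49 CPM per kb in control (SD, n = 2), 64.8 ± 0.389 with SRPIN340 (SD, n = 2) and 631 ± 16.5 in acidosis (SD, n = 3). The mean of acidosis was 10.7-fold that of control, or 4.79-fold with KLF6 left out, and 7.21-fold and 3.22-fold with total count scaling. KLF6 held 18.6% ± 1.22 of the sum in control (SD, n = 2) and 63.6% ± 1.66 in acidosis (SD, n = 3), and shares of the sum do not depend on the scaling of libraries. KLF2 went from 0.840% ± 0.408 to 7.81% ± 0.631 of the sum. All members but KLF2, KLF6 and KLF7 held a smaller share in acidosis, KLF3 being at 15.6% in control and 2.06% in acidosis although its CPM was higher.

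**Figure D3:**
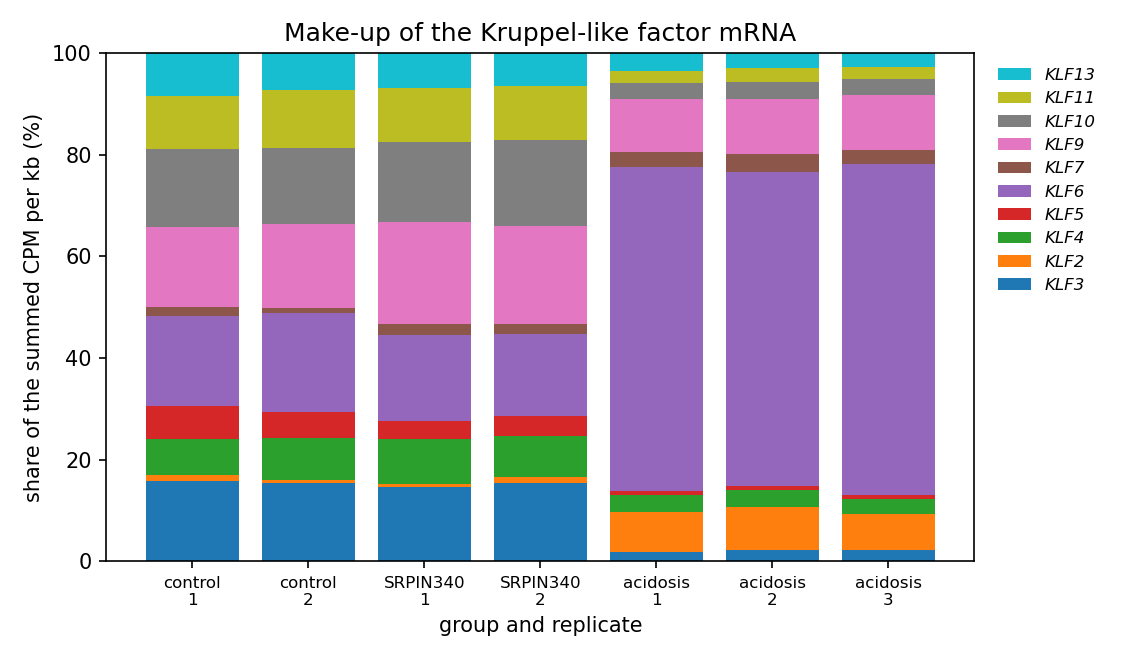
Share of each KLF gene in the summed CPM per kb of the 10 genes, in percent, for each of the 7 samples. In the control and SRPIN340 bars no gene exceeds 20.1%, and in the acidosis bars KLF6 takes 61.9% to 65.2%.

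In control the order of levels per kb was KLF6, KLF9, KLF3, KLF10, KLF11, KLF13, KLF4, KLF5, KLF7 and KLF2, from 10.9 down to 0.507 CPM per kb. Of the 9 pairs of neighbours in this order 4 overlapped between samples, namely KLF9 with KLF3, KLF3 with KLF10, KLF13 with KLF4 and KLF7 with KLF2. With SRPIN340, KLF9 was first at 12.8 CPM per kb and KLF6 second at 10.8, and only KLF6 and KLF10 overlapped as neighbours. In acidosis the order was KLF6 at 401 CPM per kb, KLF9 at 67.6, KLF2 at 49.2, KLF4 at 20.6, KLF10 at 20.2, KLF13 at 19.4, KLF7 at 19.0, KLF11 at 15.9, KLF3 at 13.01 and KLF5 at 4.39. KLF4, KLF10, KLF13 and KLF7 overlapped with their neighbours among themselves, and the step from KLF2 down to them was clear. The step below them was narrow, with the lowest KLF7 sample at 17.54 and the highest KLF11 sample at 17.36 CPM per kb. KLF2 thus moved from rank 10 to rank 3, and KLF3 from rank 3 to rank 9.

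The profile most like that of KLF2, the member with the largest rise, was that of JUNB, a subunit of the AP-1 factor, with a root mean square difference of 0.41 in log2 CPM over the 7 samples after centring on control. ARL14, a small GTPase of the ARF family, followed at 0.43, and GADD45B, a stress response gene, also at 0.43. Their log2 fold changes in acidosis against control were 6.43 for JUNB, 7.38 for ARL14 and 6.66 for GADD45B. Values near that of KLF2 follow from this way of choosing the genes.

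Of the 5 other KLF genes tested, 1 was called higher in acidosis (14.4% of all genes) and 0 were called lower (19.1% of all genes), with a median log2 fold change of 0.21. With total count scaling 0 were called higher and 2 lower, with a median of -0.36, against 815 higher and 5202 lower of all 14863 genes. KLF16, also a SIN3-binding member, was at 12.5 ± 1.98 CPM in control (SD, n = 2) and 25.6 ± 0.845 CPM in acidosis (SD, n = 3), and its log2 fold change was 1.03 ± 0.15 (SE, adjusted p = 0.00020, edgeR). KLF15, a glucocorticoid target known from muscle and kidney, was lower, at 2.91 CPM in control and 1.45 CPM in acidosis, with a log2 fold change of -0.996 ± 0.38 (SE, adjusted p = 0.041, edgeR). KLF12, a CtBP-binding repressor, was at 30.5 CPM in control and 35.4 CPM in acidosis and did not pass. KLF8 and KLF14 had means of at most 1.63 CPM in any group and did not pass, and KLF1, KLF17 and KLF18 were too low to test.

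The list counts from the main fit that follow are to be read against the 32.5% of all genes that passed higher and the 34.2% that passed lower. Those shares do not hold for total count scaling, which shifted all genes down. With it the median over all genes was -0.63, and 815 of 14863 genes were called higher and 5202 lower. Of the 8 SP genes tested, 3 passed higher and 3 lower, the median log2 fold change being -0.11, and with total count scaling 2 passed higher and 4 lower, with a median of -0.68. SP1, which binds the same GC boxes as KLF proteins, had 149.9 ± 8.50 CPM in control (SD, n = 2) and 506 ± 27.5 CPM in acidosis (SD, n = 3), and rose by a log2 fold change of 1.76 ± 0.07 (SE). SP2 rose by a log2 fold change of 1.42 ± 0.09 (SE), and SP9, a factor of the developing forebrain at 2.81 CPM in control, fell by 1.20 ± 0.43 (SE) on the log2 scale. Among cofactors, 2 of 10 passed higher and 5 lower, and the 3 calls were all lower. HDAC2, a histone deacetylase of the SIN3 complex, went from 356 ± 7.67 CPM in control (SD, n = 2) to 138 ± 8.51 CPM in acidosis (SD, n = 3), CTBP1 from 89.0 to 41.4 CPM and the acetyltransferase EP300 from 264 to 125 CPM. SIN3A, the partner of the KLF9 class, was at 117 CPM in control and 123.5 CPM in acidosis and did not pass. With total count scaling 9 of the 10 cofactors passed lower.

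Upstream routes were read from lists of their genes, some of which also hold genes that the route induces. In the ERK5 and MEF2 route, which induces KLF2 and KLF4 under shear stress, 4 of 11 genes passed higher and 2 lower, with a median log2 fold change of 0.18, a balance that total count scaling turned to 1 higher and 4 lower, with a median of -0.39. The transcription factor gene MEF2A rose by a log2 fold change of 1.08 ± 0.12 (SE), and MAP2K5, the kinase that activates ERK5, fell by 1.34 ± 0.16 (SE) on the log2 scale. In the route of transforming growth factor beta upstream of KLF10 and KLF11, 10 of 13 genes passed higher and 1 lower, with a median log2 fold change of 0.76; with total count scaling 7 passed higher and 3 lower. The called genes included SMAD7 (2.58 ± 0.07, SE), an inhibitor of the route, and the ligand TGFB2 (1.70 ± 0.17, SE), both as log2 fold changes. The receptor TGFBR2 was the gene that passed lower, at 30.0 CPM in control and 18.75 CPM in acidosis.

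In the glucocorticoid list, 5 of 7 genes passed higher and 2 lower, with a median log2 fold change of 0.95. With total count scaling 3 passed higher and 2 lower, with a median of 0.38. The list holds the receptor genes NR3C1 and NR3C2 and otherwise targets of the receptor, which also induces KLF9. NR3C1 was at 95.75 and 89.06 CPM in control and 126.1 to 158 CPM in acidosis. NR3C2 was at 22.05 and 22.22 CPM in control and 10.23 to 13.96 CPM in acidosis. The clock gene PER1 stood at 8.97 ± 0.717 CPM in control (SD, n = 2) and 186 ± 36.5 CPM in acidosis (SD, n = 3), rising by a log2 fold change of 4.37 ± 0.19 (SE), and the kinase SGK1 by one of 1.93 ± 0.17 (SE). FKBP5, a chaperone cofactor and, like PER1 and SGK1, a glucocorticoid target, went the other way. Its level was 110.3 ± 10.3 CPM in control (SD, n = 2) and 36.8 ± 4.62 CPM in acidosis (SD, n = 3). Among ubiquitin pathway genes that act on KLF proteins, 3 of 9 passed higher and 4 lower, the median log2 fold change being -0.34, and 1 passed higher and 5 lower with total count scaling, with a median of -0.91. The ligase gene SIAH1 rose by a log2 fold change of 1.83 ± 0.11 (SE), and BTRC, a substrate receptor of SCF ligases, fell by 1.48 ± 0.12 (SE) on the log2 scale.

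Of 16 described targets of KLF proteins tested, 8 passed higher and 5 lower, with a median log2 fold change of 0.71, while total count scaling turned the balance to 6 higher and 7 lower, with a median of 0.14. TAGLN, a smooth muscle gene, rose by a log2 fold change of 3.73 ± 0.24 (SE) from 1.44 CPM in control, SMAD7 is given above, and MAOB, a monoamine oxidase gene, fell by 2.87 ± 0.31 (SE) on the log2 scale from 4.82 CPM. All these values are from the same edgeR fit, with adjusted p from 8.3e-09 (SMAD7) to 0.031 (SP9) for the called genes named. Over all lists, 77 of 82 genes were tested. In acidosis against control 19 were called higher (14.4% of all genes) and 11 lower (19.1% of all genes). Against SRPIN340 18 were called higher (14.9% of all genes) and 14 lower (19.7% of all genes). With SRPIN340 against control edgeR and DESeq2 called 0 of the 77, and edgeR had 6 higher and 5 lower at an unadjusted p under 0.05. SMAD7 passed lower by edgeR, with a log2 fold change of -0.38 (adjusted p = 0.038).

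**Figure D4:**
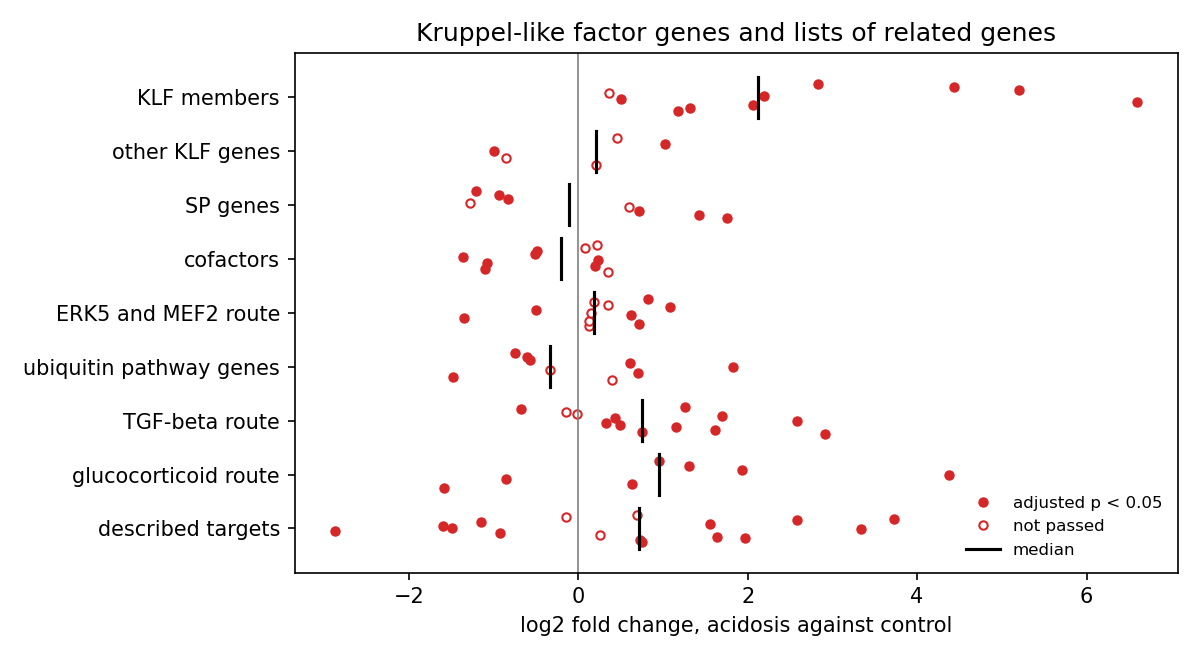
Log2 fold change in acidosis against control of the 10 KLF genes and of each tested gene in 8 lists of related genes, 1 point per gene (SMAD7 and TGFBR1 appear in 2 lists), filled where the adjusted p was under 0.05, with the median of each list as a bar. The KLF median lies at 2.12 and the list medians lie between -0.34 and 0.95, and with total count scaling all lists shift lower and KLF3 and KLF5 pass below 0.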

How the data were processed

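Poly(A) RNA of 7 HEK-293 samples was sequenced. The authors trimmed paired reads (Trimmomatic 0.39, Trim Galore 0.6.6), quantified transcripts with Salmon 1.5.1 on a GENCODE GRCh38 transcriptome, used tximport to sum transcripts by gene, and the deposited values are the resulting estimated counts, without normalization across libraries. The tximport option and the way repeat runs of a sample were joined are not given in the sources used here. Salmon divides reads shared by similar transcripts by a model, so a count need not be whole.

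After rounding, the quasi-likelihood test of edgeR (version 4.0.16, R 4.3.3) was applied with TMM scaling and the filterByExpr filter, all 7 samples sharing 1 fit, and with Benjamini-Hochberg adjustment over 14863 genes. A gene passed at an adjusted p under 0.05 and was called when its absolute log2 fold change was also over 1. The SE was derived from the test statistic. CPM used TMM-scaled totals, and log2 CPM had an offset of 0.5. Identifiers were matched to GENCODE release 44 (19977 of 19978 genes), which also gave gene coordinates on GRCh38 and transcript lengths, and promoter sequences were taken from RefSeq. Both tools were tested on simulated counts before use. Replicate pairs differed by more than sampling noise.

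The members and the lists were chosen with earlier results of these data known. From each list, genes called with SRPIN340 and the 3 of largest change among those called in acidosis (mean over the samples 1 CPM or more) were named, all other KLF genes were described by level, and for the member of largest rise the 3 genes of most similar profile were named. Some genes that this rule names are not reported here. SIN3A, TGFBR2, NR3C1, NR3C2 and the change of SMAD7 with SRPIN340 were added after their values were seen. Alternatives were DESeq2 1.42.0, RLE size factors, total count scaling, no filter, only the 2 groups compared, a replicate block, no fold limit and each replicate left out. Figures were drawn with matplotlib 3.10.9 in Python 3.11.15.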

Additional observations from a re-analysis of the deposited data

How the results depend on the processing

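Counts of KLF genes called in acidosis were 8 against control under every alternative but total count scaling (6) and no fold limit (9), and 7 against SRPIN340 but for 6 and 10 under the same settings. Without the fold limit 1 member was higher with SRPIN340. For the lists, the counts without the fold limit were 35 higher and 23 lower in acidosis against control (32.5% and 34.2% of all genes). They were 36 higher and 23 lower against SRPIN340 (32.8% and 35.0%), and 2 lower with SRPIN340 against control (1.53%). With total count scaling, 12 list genes were called higher and 25 lower against control, and 11 higher and 22 lower against SRPIN340. Of all 14863 genes, that scaling called 815 higher and 5202 lower against control, and 775 and 5505 against SRPIN340. KLF3 reversed with total count scaling, at a log2 fold change of -0.074 against control and -0.20 against SRPIN340, since that scaling lowers all log2 fold changes in acidosis by a similar amount.

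Alternative values of single members were checked for their side of the adjusted p threshold, and for direction where either value passed it. Of these, 107 of 110 in acidosis against control, 95 of 100 with SRPIN340 against control and 105 of 110 in acidosis against SRPIN340 kept both. The exceptions are given in the report beside KLF3, KLF5 and KLF9. The fold limit was not part of this check. With total count scaling KLF10 and KLF11 against control, and KLF11 against SRPIN340 (0.58), still passed but came under the limit of a call. Whether the replicate numbers shared by the groups mark matched repeats is not given in the sources used here. Correlations of deviations between same-numbered samples ran from -0.15 to 0.07. In groups of 2 samples the deviations mirror each other, so these few values cannot settle it. With the replicate block the member counts stayed at 8 and 7, and the list calls against control were 18 higher and 12 lower. Leaving out single replicates gave 17 to 20 list genes higher and 9 to 13 lower against control. The groups of 2 samples limit the precision of every comparison, most of all for KLF2, and acidosis 2 and 3 had the fewest counts.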
